A study of Mus musculus with 6 samples.

Results

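Chromatin modifier and remodeller genes were followed in the RNA of mouse mature sperm and testes. The members were the genes with a protein-coding RefSeq transcript (accession prefix NM_) whose symbol began with one of the family names Kdm, Kat, Kmt, Hdac, Setd, Brd, Chd, Smarc, Dnmt, Tet, Ezh, Ehmt, Suv, Sirt or Prmt, with a number after the name where the family is numbered. This rule took 104 of the 14455 genes that had such a transcript in any of the 6 tables, and it used no measured value. RNA came from C57BL/6 mice, an inbred strain, aged 3 to 5 months per the labels, which name no mutation or treatment, with 4 samples of sperm and 2 of testes. The published methods name the substrain C57BL/6J and an age, in weeks, that starts below this range. Each sperm sample was a separate pool of mice, and the testes came from the same mice, arranged as biological replicates. Sperm were collected from the vas deferens and caudal epididymis and passed through a filter and a somatic cell lysis step, whereas testes are a tissue of germ cells at every stage together with Sertoli, Leydig and other somatic cells. Ribosomal RNA was depleted and the remaining RNA was sequenced in pairs with strand information kept. Sperm 1 was left out of the main comparison, as in the published one, and its values are given beside the others.

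These genes encode the proteins that write, erase and read marks on histones and DNA, or that move nucleosomes with energy from ATP. Acetyltransferases and methyltransferases add marks, deacetylases and demethylases remove them, bromodomain proteins bind acetylated lysines, and CHD, SWI/SNF and ISWI remodellers slide or evict nucleosomes. In the male germ line they act while spermatids give up most of their histones for transition proteins and then protamines. Brdt, the testis-specific bromodomain protein, binds hyperacetylated histones at that step. Mature sperm carry condensed chromatin and are regarded as transcriptionally silent.

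The sperm tables were shallow. The protein-coding transcripts held 33511 to 100027 estimated counts in the 4 sperm samples and 314273 and 322625 in the testes, which was 9.14% to 12.1% of all counts in a sample. Levels are given below as cpm, the count divided by the sample's total over the protein-coding transcripts and multiplied by 1000000. Because the testes tables were deeper than every sperm table, the counts given below compare samples only once they are scaled to cpm. A count of 3 is the limit that a count of 0 allows by counting error alone. It equals 30.0 to 89.5 cpm in a sperm sample and 9.30 or 9.55 cpm in a testes sample. Absence from a sperm table therefore did not show that a transcript was absent. The sperm samples differed from each other by far more than counting error, with a chi-square per degree of freedom of 4.93 to 12.5 over pairs of sperm samples and of 6.92 between the testes samples, so none was counted as a copy of another. Sperm 3 stood apart most, with values of 11.4 to 12.5 against the other sperm samples. Across the members, the Pearson correlation of log2(cpm + 10) was 0.9003 between the testes samples and 0.274 to 0.644 between sperm samples, which describes genes within samples and not replicates. In bulk samples, fewer cells of a type and less RNA per cell cannot be told apart.

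Markers of the cells from which these RNAs could come were read alongside. Of 8 listed meiotic spermatocyte markers, among them the synaptonemal complex genes Sycp1 and Sycp3, all were at 0 in the 4 sperm samples, and their summed level in testes was 127 and 130 cpm. Of 5 measured spermatogonial markers, Gfra1 alone was present in sperm, with 7, 2, 6 and 7 counts in sperm 1 to 4 against 242 and 308 in testes. Sertoli markers were limited to 1 count of Sox9 in sperm 2, and leukocyte markers to 2 counts each of Cd4 and Cd52 in sperm 2. Of 6 measured Leydig genes, Star had 0, 16, 40 and 6 counts in sperm 1 to 4 against 168 and 148 in testes. Cyp17a1 had 1 count in sperm 2, and Hsd3b1, Hsd3b6, Insl3 and Cyp11a1 were at 0 in every sperm sample. The summed Leydig level was 0, 170, 1194 and 110 cpm in sperm 1 to 4 and 580 and 541 cpm in testes, so sperm 3 lay above both testes. The epithelial gene Epcam was present with 5, 6, 5 and 0 counts in sperm 1 to 4, against 17 and 26 in testes. Krt18 had 0, 2, 0 and 4 counts against 1 and 0, and Adam7 had 0, 0, 0 and 5 against 1 and 11. Summed epididymal markers reached 79.98 to 166 cpm in sperm and 62.0 and 134 cpm in testes, from 6 of 10 listed genes, and the defining epithelial gene Cdh1 was listed in no sample. The part of these cells in the results below was not tested. Of 14 spermatid and sperm markers, 2, 9, 4 and 5 had a count in sperm 1 to 4, and 14 and 13 in testes. Odf2 and Tssk6 were present in every sample, while Odf1, Crem and Pgk2 were at 0 in every sperm sample. The summed level was 448, 1460, 2805 and 1288 cpm in sperm and 1531 and 2063 cpm in testes. Of the protamines, protamine 2 (Prm2) had 45, 148, 49 and 130 counts in sperm 1 to 4 and protamine 1 (Prm1) only 6, 2, 0 and 2.

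Sperm RNA listed fewer chromatin genes than testes RNA, as it listed fewer of all genes, and which genes were listed changed from sample to sample. The number of members with a count above 0 was 21, 67, 15 and 39 in sperm 1 to 4 and 86 and 90 in the testes. That was 20.2%, 64.4%, 14.4% and 37.5% of the members in sperm, and 82.7% and 86.5% in testes. Of all genes, 14.0%, 46.6%, 10.7% and 22.9% were listed in sperm 1 to 4, and 84.7% and 79.8% in testes. The sperm samples all lay below both testes samples, with a mean of 40.3 ± 26.0 (SD, n = 3, sperm 2 to 4) against 88 ± 2.83 (SD, n = 2). The order of the sperm samples was that of their mRNA totals. When every sample was thinned to the smallest total of 33512 counts, by exact expectation, the numbers became 20.1, 47.9, 15, 35.6, 49.1 and 47.7. On that footing sperm 2 lay between the testes samples and the other sperm samples lay below them, with a mean of 32.8 ± 16.6 against 48.4 ± 1.00. The thinning was not done for all genes. Many of these values rested on very few fragments, since 35 of the 67 members listed in sperm 2 had 1 to 3 counts, against 2 of the 15 in sperm 3.

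**Figure D1:**
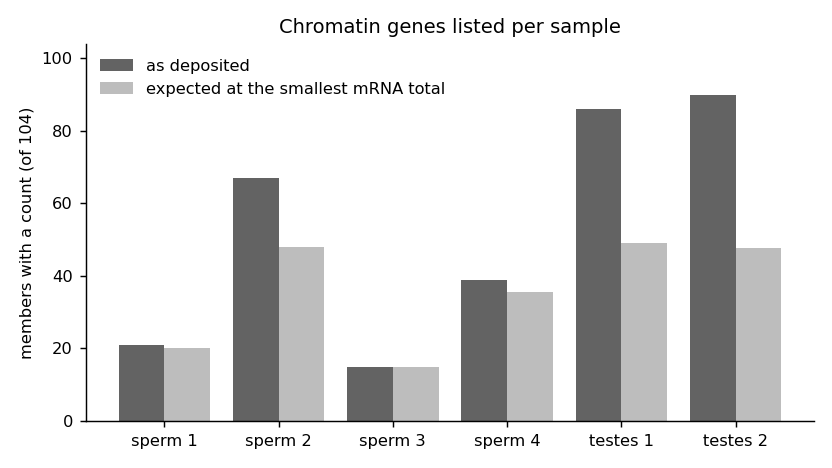
Number of members listed in each of the 6 samples, out of 104, as deposited and after thinning every sample to the smallest mRNA total. As deposited the 4 sperm samples lie at 15 to 67 and the testes at 86 and 90, and after thinning sperm 2 (47.9) reaches the testes level (47.7 and 49.1).

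Few members were found repeatedly in sperm. Of the 104 members, 74 were listed in at least 1 sperm sample (71.2%, against 52.1% of all genes), and 30 of those in 1 sperm sample only, 25 of them in sperm 2. All 4 sperm samples listed 4 members (3.85%, against 5.39% of all genes). These were Brd2, a BET protein that binds acetylated histone tails, Prmt6, an arginine methyltransferase, Kdm3b, a demethylase of H3K9, and Chd5, a remodeller known for its role in the histone-to-protamine switch. All of these 4 were also listed in both testes samples. Sperm 2 to 4 together listed 9 members, the other 5 being Chd4, Kat6b, Kdm6b, Smarca4 and Suv420h1. In testes, 102 members were listed in at least 1 sample (98.1%, against 96.2% of all genes) and 74 in both. For these 74, and for the 9 above, the share of all genes was not counted. Sperm but neither testes sample listed 2 members (1.92%, against 3.79% of all genes). They were Prmt8, with 2 counts in sperm 2, and Smarcd3, with 4 counts in sperm 1 and 3 in sperm 4.

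The members together took up a similar share of the mRNA counts in sperm and in testes, within the spread of the sperm samples. That share was 0.337% (95% Wilson interval 0.286 to 0.397), 0.484% (0.443 to 0.529), 0.376% (0.316 to 0.448) and 0.557% (0.498 to 0.624) in sperm 1 to 4, and 0.539% (0.514 to 0.565) and 0.511% (0.487 to 0.537) in testes. These intervals cover counting error only. The testes values lay inside the range of the sperm values, and the means of 0.473% ± 0.0912 (SD, n = 3) and 0.525% ± 0.0195 (SD, n = 2) differed by a log2 ratio of -0.15, less than the SD of 0.29 (log2) among sperm 2 to 4. On the summed FPKM, which divides by transcript length, the shares were 0.280% ± 0.0525 and 0.293% ± 0.0166. When the 10 highest mRNA genes were taken out of each total, the log2 ratio was 0.15 and its sign turned. With all 4 sperm samples it was -0.26. As a share of all transcripts it was -0.39, larger in size than the SD of 0.29. With 3 samples against 2 and members chosen with results known, no test was applied to this share.

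The share was spread over several members in every sample. The 5 highest members by count held 38.4% to 61.9% of the members' counts in sperm and 41.7% and 41.8% in testes. The leading member differed between sperm samples. It was Chd3 in sperm 1 with 10.5%, Chd5 in sperm 2 with 10.5%, Prmt6 in sperm 3 with 22.2% and Brd2 in sperm 4 with 18.5%. In the testes samples it was Brd2 with 14.4% in the first and Brd8 with 12.5% in the second. In sperm 3, 3 members made up 50% of the members' counts, against 6 to 8 members in each of the other samples.

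By family, the make-up differed more than the sum. The bromodomain proteins held 0.0662% ± 0.0524 (SD, n = 3) of the mRNA counts in sperm 2 to 4 and 0.163% ± 0.00141 (SD, n = 2) in testes, with values of 0.0212%, 0.0641%, 0.0149% and 0.120% in sperm 1 to 4, all below both testes. The SWI/SNF and ISWI remodellers were also lower in every sperm sample, at 0.0307%, 0.0382%, 0.0209% and 0.0419% against 0.103% and 0.0923%. The histone lysine methyltransferases showed the same order, at 0.0212%, 0.0550%, 0.0388% and 0.0405% against 0.0880% and 0.0731%. Smarcal1, which was placed among the SWI/SNF and ISWI remodellers by its name, made up 55.5% and 40.4% of their testes values. Brd8, at 501.5 and 638.0 cpm in testes, made up 38.8% of the bromodomain value in the second testes sample. The family shares without these genes were not computed.

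The protein arginine methyltransferases lay the other way, at 0.0354%, 0.0210%, 0.0836% and 0.0276% in sperm 1 to 4 against 0.00558% and 0.00509% in testes, and Prmt6 alone gave 60% to 100% of the sperm values. The histone acetyltransferases held 0.0320%, 0.0328% and 0.0313% in sperm 2 to 4 and 0.0107% and 0.00675% in testes, but only 0.00236% in sperm 1. Kat6b made up 68.8%, 100% and 52.9% of this share in sperm 2 to 4. Histone deacetylases and sirtuins lay above both testes in all 4 sperm samples too, at 0.0826%, 0.0620%, 0.0418% and 0.0755% against 0.0414% and 0.0393%, although sperm 3 did so only just. The lysine demethylases lay above both testes in sperm 2 to 4, at 0.0760%, 0.1015% and 0.0773% against 0.0738% and 0.0627%, and below them in sperm 1, at 0.0519%. In the other families sperm 3 lay below both testes samples and the other sperm samples above. The CHD remodellers held 0.0921% ± 0.0437 in sperm 2 to 4 against 0.0562% ± 0.00872 in testes, and the DNA methylation enzymes 0.0150% ± 0.0131 against 0.00470% ± 0.000764. These family shares are descriptions with no test, and single members, given below, made up much of several of them.

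**Figure D2:**
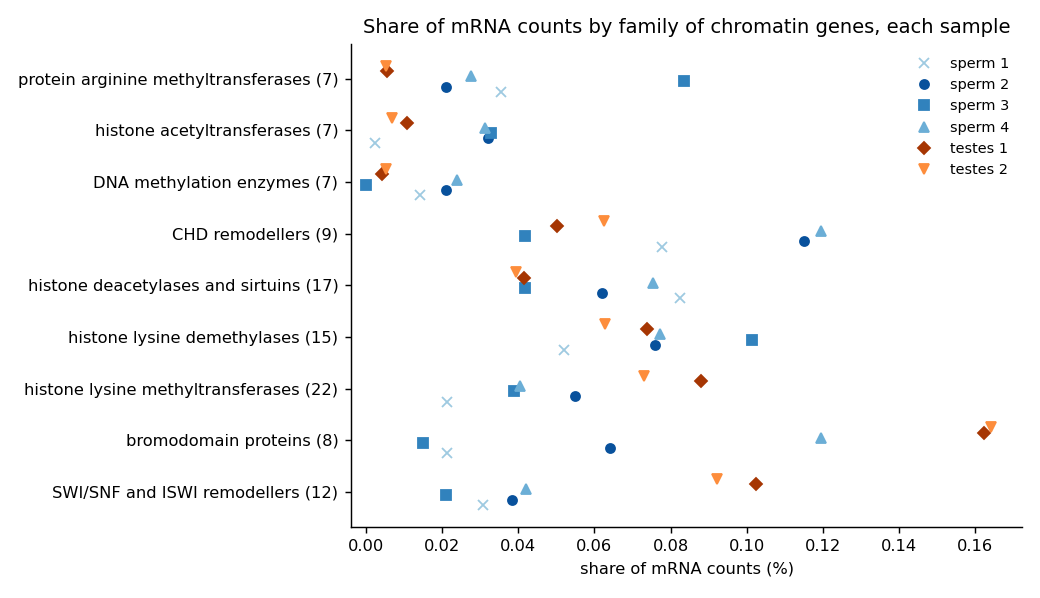
Share of the mRNA counts (percent, horizontal axis) held by each of 9 families (rows of points, with the number of members in brackets), with 1 point for each sample. All 4 sperm points lie below both testes points for the bromodomain proteins, the SWI/SNF and ISWI remodellers and the lysine methyltransferases, and above them for the arginine methyltransferases and for the deacetylases and sirtuins.

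Each member was then tested between sperm 2 to 4 and the testes with edgeR's quasi-likelihood test on the counts, fitted over the 6828 genes with a summed count of at least 10 in these 5 samples. A gene was called at a Benjamini-Hochberg adjusted p under 0.05 over all 6828 genes and a fold change over 2. Of the 104 members, 66 could be tested. Kat6b and Prmt6 rose in sperm, 2 members, where 3.54% of all genes tested were called higher. Brd8 and Smarcal1 fell in sperm, 2 members, where 3.65% of all genes tested were called lower. The members' shares were thus near the background in both directions. At an unadjusted edgeR p under 0.05 the counts were 7 members higher (9.55% of all genes) and 12 lower (30.0% of all genes). DESeq2 called Kat6b and Prmt6 higher, where 2.81% of all genes were, and Brd8, Brd9, Brdt, Hdac10, Setd2 and Smarcal1 lower, where 12.9% were. Limma on log2(FPKM + 1) called 9 members lower, where 22.4% of all genes were, and on log2(FPKM + 0.1) it called 11, where 26.2% were. Below, called refers to edgeR on sperm 2 to 4 against testes unless another tool or sample set is named.

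The median log2 fold change of the 66 members was -0.60, and that of all genes tested was -1.19. Fitted fold changes of genes at 0 in a whole group depend on the prior count, and with such genes set to the bound that 3 counts over the group allow, the medians were -0.56 and -0.54. The fitted fold change was positive for 27 members and negative for 39. The values of sperm 2 to 4 all lay above both testes for 5 members, where 7.72% of all genes tested did so, and all below for 23 members, where 45.0% did. The 5 were Chd4, Kat6b, Kdm3b, Prmt6 and Suv420h1.

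**Figure D3:**
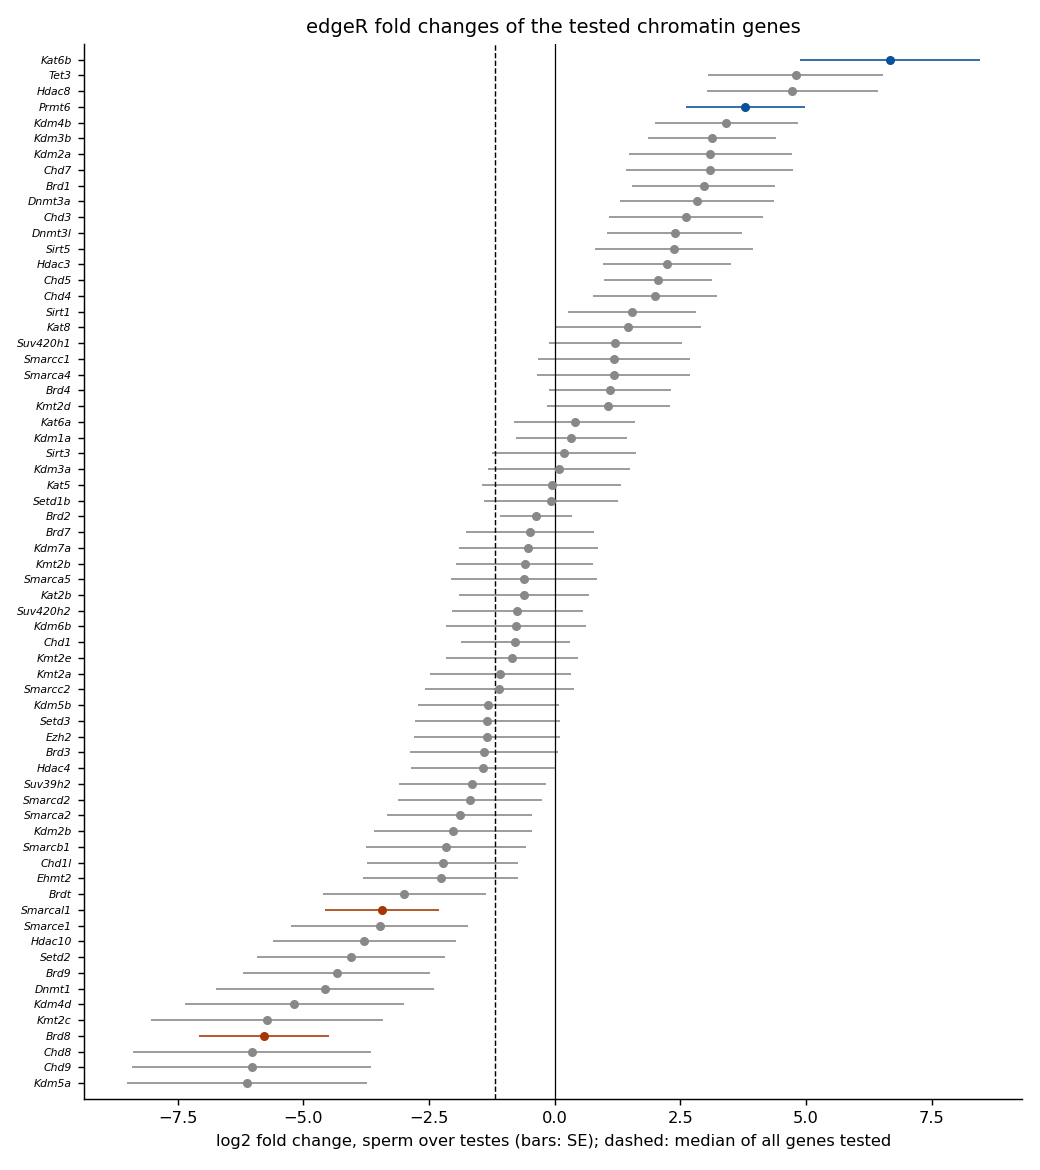
Fitted log2 fold changes (sperm 2 to 4 over testes, horizontal axis) of the 66 tested members in order of size, with bars of 1 SE, the called members in colour (blue higher, red lower) and the median of all 6828 genes (-1.19) as a dashed line. The points reach from -6.12 for Kdm5a to 6.67 for Kat6b. Values near the lower end belong mostly to members at 0 in sperm, whose fitted size depends on the prior count. Brd8 (-5.78), with 2.11 counts in sperm 2, is not among those at 0.

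The members described next are Brdt, the called ones, the 8 highest by mean FPKM in each tissue and the highest of each family. Any other member named was picked after its values were seen.

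Among the writers of acetyl marks, Kat6b stood out. Kat6b (MYST family, acetylates histone H3; chromosome 14, 21499216 to 21672478 in GRCm38.p6) had 0, 22, 11 and 9 counts in sperm 1 to 4, and 1 and 0 in testes. On the scale of cpm that was 0, 219.9, 328.3 and 165.6 against 3.1 and 0. Sperm 2 to 4 lay far above both testes samples, and sperm 1 had none. At the testes level 0.295 counts would have been found in sperm 2 to 4 together, and 42 were. Kat6b rose in sperm with a log2 fold change of 6.67 ± 1.79 (SE) and an edgeR adjusted p of 0.00575. The call was lost when sperm 2 was left out (edgeR adjusted p = 0.0655), and when either testes sample was (0.228 without the first, at a log2 fold change of 7.90, and 0.293 without the second, at 5.86), and it was kept with all 4 sperm samples (0.0323). TMM factors gave 5.91 (edgeR adjusted p = 0.0546).

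The other acetyltransferases were sparse. Kat8, which acetylates lysine 16 of histone H4, had 8 counts in sperm 4 and none in sperm 1 to 3, against 8 and 3 in testes, with a log2 fold change of 1.46 ± 1.44 (edgeR adjusted p = 0.466). Kat2b, Kat5 and Kat6a, which belong to the GCN5-related and MYST enzymes, had at most 5 counts in any sperm sample and none was called. Kat2a and Kat7 were at 0 in every sperm sample and held 7 counts or fewer over both testes samples.

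Among the arginine methyltransferases, Prmt6 was the member with the highest mean FPKM in sperm. Prmt6, which places asymmetric dimethylation on arginine 2 of histone H3 (chromosome 3, 110246104 to 110250999), had 9, 19, 28 and 15 counts in sperm 1 to 4, and 9 and 10 in testes. Its levels were 212.3, 189.9, 835.5 and 276.1 cpm against 27.9 and 31.8 cpm. All 4 sperm samples lay above both testes samples, and sperm 3 was far above the other sperm samples. At the testes level 5.61 counts would have been found in sperm 2 to 4, and 62 were. Prmt6 rose in sperm with a log2 fold change of 3.80 ± 1.18 (SE) and an edgeR adjusted p of 0.0242. Leaving sperm 3 out gave 2.92 (edgeR adjusted p = 0.00756). The edgeR call was lost without sperm 2 (adjusted p = 0.0814) and without the first or the second testes sample (0.324 and 0.293), and with TMM factors (0.182, at 2.64).

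The other 6 arginine methyltransferases, among them Prmt1 and Prmt5, the main enzymes of asymmetric and symmetric dimethylation, could not be compared at this depth. Prmt10 had 6 counts in sperm 1 and Prmt8 had 2 counts in sperm 2, and the other 4 were at 0 in the 4 sperm samples. None of these 6 passed the minimum of 10 summed counts, and in testes none had more than 5 counts in a sample, so a count of 0 in sperm was not a detectable difference.

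The lysine methyltransferases formed the largest family, with 22 members, of which 13 were tested and none was called by edgeR. DESeq2 called Setd2 lower, and limma called Setd2 (both pseudocounts), Ehmt2 (pseudocount 1) and Kmt2c (pseudocount 0.1) lower. All 22 were listed in testes and 15 in some sperm sample. Suv420h1, now named Kmt5b, which methylates lysine 20 of histone H4, had 0, 18, 5 and 8 counts in sperm 1 to 4, and 36.1 and 8.14 in testes. By cpm, sperm 2 to 4 lay above both testes samples, but the log2 fold change of 1.21 ± 1.33 was within its error (edgeR adjusted p = 0.517). Kmt2e, a SET domain protein of the MLL family, had 7, 9, 6 and 0 counts against 58.3 and 41. Setd2, which trimethylates lysine 36 of histone H3, had 2, 1, 0 and 0 counts against 31 and 28, with a log2 fold change of -4.05 that did not pass (edgeR adjusted p = 0.0961). Ezh2, the catalytic subunit of Polycomb repressive complex 2, had 1 count in sperm 2 and 1 and 8 in testes.

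Among the lysine demethylases, 15 members, 11 were tested and none was called by edgeR, while limma called Kdm4d (both pseudocounts) and Kdm5a (pseudocount 0.1) lower. Kdm1a, which removes methyl groups from lysine 4 of histone H3, had 9, 30, 0 and 17 counts in sperm 1 to 4, and 62 and 45 in testes. Its mean FPKM was near in both tissues, 6.89 in sperm 2 to 4 and 6.53 in testes, sperm 3 was at 0, and the fitted log2 change of 0.33 ± 1.10 did not pass (edgeR adjusted p = 0.847). Kdm3b, listed in every sample, had 1, 11, 24 and 7 counts against 16 and 5.92. Sperm 2 to 4 lay above both testes samples by cpm, sperm 3 highest, and the log2 fold change of 3.14 ± 1.27 was not called (edgeR adjusted p = 0.0746). Kdm5a, which removes trimethylation of lysine 4 of histone H3, was at 0 in all 4 sperm samples and had 15 and 18 counts in testes. Kdm4d, an H3K9 demethylase, was likewise at 0 in sperm and had 9 and 8 in testes. Kdm6b, which acts on lysine 27 of histone H3, had 0, 5, 4 and 3 counts against 32 and 46.

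Of the 17 histone deacetylases and sirtuins, 7 were tested and none was called by edgeR, and in sperm 2 to 4 sirtuins had the highest mean FPKM. In testes Sirt3 was highest (5.755) and Hdac10 next (3.83). Sirt1, a nuclear NAD-dependent deacetylase, had 12, 28, 0 and 16 counts in sperm 1 to 4, and 24.2 and 19 in testes. The level was 279.9 to 294.5 cpm in 3 sperm samples, above the 74.9 and 60.5 cpm of the testes, but sperm 3 had none, and the log2 fold change of 1.54 ± 1.27 did not pass (edgeR adjusted p = 0.377). It was called without sperm 3, at 2.08 (edgeR adjusted p = 0.0279).

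The mitochondrial sirtuins differed from each other in where they were listed. Sirt3, the main mitochondrial protein deacetylase, had 7, 8, 0 and 8 counts in sperm 1 to 4 against 22.3 and 22.4 in testes (log2 fold change 0.19 ± 1.43, edgeR adjusted p = 0.936). Sirt5, which removes succinyl groups, had 8 counts in sperm 3 and none in sperm 1, 2 and 4, against 7 and 1 in testes (log2 fold change 2.37 ± 1.56, edgeR adjusted p = 0.257). For both genes the sperm samples lay on either side of the testes. Among the zinc-dependent deacetylases, Hdac8 had 6, 3, 6 and 0 counts against 1 and 0, with a log2 fold change of 4.73 ± 1.70 that missed the threshold (edgeR adjusted p = 0.0620). Hdac4, a class IIa deacetylase, had 0, 3, 0 and 6 counts against 51 and 33. Hdac10, a polyamine deacetylase, had 0, 1, 0 and 0 counts against 17 and 32, every sperm sample lying below both testes by cpm, and its log2 fold change of -3.79 did not pass in edgeR (adjusted p = 0.108), whereas DESeq2 (adjusted p = 0.0395) and limma at both pseudocounts called it lower. Hdac1 and Hdac2, the catalytic subunits of several corepressor complexes, had 1 count each over the 4 sperm samples and 1.18 and 6 over both testes samples.

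Among the readers, all 8 bromodomain proteins were tested, and Brd8 fell. Brd8, a subunit of the NuA4/TIP60 acetyltransferase complex (chromosome 18, 34598611 to 34624863, where Kif20a and the lncRNA Gm41688 overlap it), had 0, 2.11, 0 and 0 counts in sperm 1 to 4, and 161.79 and 200.50 in testes. The levels were 0, 21.1, 0 and 0 cpm against 501.5 and 638.0 cpm, so every sperm sample lay far below both testes. At the testes level 106.9 counts would have been found in sperm 2 to 4. Brd8 fell in sperm, by a fitted log2 change of -5.78 ± 1.30 (SE; adjusted p of edgeR 4.31e-04). Brd8 was called in 13 of the 16 fits, more than any other member. The exceptions were the fits without the first testes sample (edgeR adjusted p = 0.0749), without the second (0.293), and with no filter on low counts (0.216). The size rests on sperm 2, which held the only sperm counts, and without it the fitted value was -9.69 (edgeR adjusted p = 0.0451), which depends on the prior count.

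Brdt, the testis-specific member of the BET family, had 0, 3, 0 and 0 counts in sperm 1 to 4, and 29 and 42 in testes. Its levels of 0, 30.0, 0 and 0 cpm lay below the 89.9 and 133.6 cpm of the testes in every sperm sample. At the testes level 20.9 counts would have been found in sperm 2 to 4, against 3. The log2 fold change of -2.99 ± 1.63 was not called by edgeR (adjusted p = 0.158), and DESeq2 (adjusted p = 0.0436) and limma at pseudocount 1 (adjusted p = 0.0286) called it. Sperm 2 held all 3 counts, and without it the fitted value was -7.35 and was again not called (edgeR adjusted p = 0.164). The annotated gene (chromosome 5, 107331116 to 107387061) overlaps the lncRNA Gm17202 and a pseudogene.

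Brd2 held the highest FPKM of all members in testes. Brd2 had 7, 44, 5 and 56 counts in sperm 1 to 4, and 251 and 200 in testes, with a mean FPKM of 12.3 in sperm 2 to 4 and 18.1 in testes. Sperm 4 lay above both testes samples by cpm and the other sperm samples lay below, and the log2 fold change of -0.38 ± 0.72 was within its error (edgeR adjusted p = 0.731). Brd9, a subunit of the non-canonical BAF complex, had 0, 1, 0 and 0 counts against 40 and 32. Every sperm sample lay below both testes, yet the log2 fold change of -4.34 ± 1.86 was not called (edgeR adjusted p = 0.0813). It was called without sperm 3 (edgeR adjusted p = 0.0356), by DESeq2 (adjusted p = 0.0151) and by limma at both pseudocounts.

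**Figure D4:**
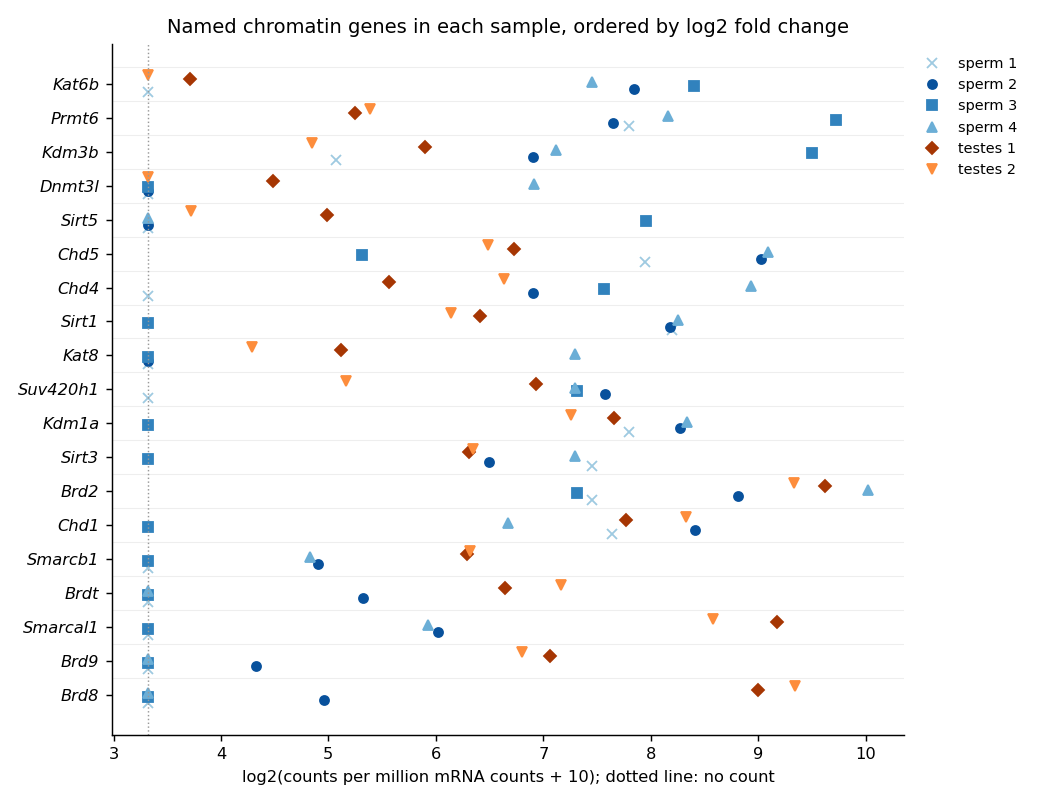
Level of each named member in every sample as log2(cpm + 10), with 1 point for each sample and a dotted line where samples without a count lie. Prmt6 is above both testes values in all 4 sperm samples, Kat6b in sperm 2 to 4, and Brd8, Smarcal1, Brdt and Brd9 are below both testes values in every sperm sample.

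Among the members grouped by name as ATP-dependent remodellers, 1 was called. Of the 12 SWI/SNF and ISWI members, Smarcal1, an annealing helicase of stalled replication forks that is named for its SWI/SNF-like ATPase domain (chromosome 1, 72536695 to 72636790, overlapping Marchf4), had 0, 5.51, 0 and 2.77 counts in sperm 1 to 4, and 183.54 and 117.18 in testes. Its 0, 55.1, 0 and 51.0 cpm in sperm lay below the 568.9 and 372.9 cpm of the testes in every sample, and 8.28 counts were found in sperm 2 to 4 where the testes level would have given 88.7. Smarcal1 fell in sperm with a log2 fold change of -3.43 ± 1.13 (SE) and an edgeR adjusted p of 0.0378. The call was lost without sperm 2 (edgeR adjusted p = 0.134), without sperm 4 (0.0629), without either testes sample (0.536 and 0.293) and with TMM factors (0.0546).

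Of the 9 SWI/SNF and ISWI members tested, 7, Smarcal1 among them, had a negative fitted fold change and 2 a positive one. Sperm 2 to 4 all lay below both testes for 6 of the 9, where 45.0% of all genes tested did so. Smarce1 had 0, 1, 0 and 0 counts in sperm 1 to 4 against 19.6 and 20 in testes (log2 fold change -3.48 ± 1.76, edgeR adjusted p = 0.123). Limma called Smarce1 lower at both pseudocounts. Smarcb1, a core subunit, had 0, 2, 0 and 1 counts in sperm 1 to 4 against 22 and 22 in testes (log2 fold change -2.16 ± 1.59, edgeR adjusted p = 0.314). Smarca4, the ATPase also known as BRG1, had 0, 3.99, 6.99 and 1.99 counts against 17.0 and 7.98, and was listed in each of sperm 2 to 4. Smarcc1, a scaffold subunit, had 9, 10, 0 and 5 counts against 10 and 9. Smarca5, the ISWI ATPase, had 0, 4.06, 0 and 2 counts against 7.99 and 20.0. The fitted log2 fold changes of Smarca4 and Smarcc1 were 1.17 and 1.18, that of Smarca5 was -0.60, and none of these members was called.

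Among the CHD remodellers, 8 of 9 were tested and none was called by edgeR, while limma at pseudocount 0.1 called Chd8 and Chd9 lower. Chd5 had 10, 51, 1 and 29 counts in sperm 1 to 4, and 31 and 25 in testes. By cpm sperm 1, 2 and 4 lay above both testes samples and sperm 3 below, and the log2 fold change of 2.05 ± 1.07 did not pass (edgeR adjusted p = 0.138). Without sperm 3 it was 2.56 and was called (edgeR adjusted p = 3.79e-04). The 29 counts of sperm 4 all stood under one of its transcript models and those of the other samples under another. Chd4, the ATPase of the NuRD complex, had 0, 11, 6 and 26 counts against 12 and 28, with sperm 2 to 4 above both testes by cpm (log2 fold change 2.001 ± 1.23, edgeR adjusted p = 0.220; 0.0258 without sperm 3). Chd1, which binds trimethylated lysine 4 of histone H3, had 8, 33, 0 and 5 counts against 67 and 98 (log2 fold change -0.78 ± 1.08, edgeR adjusted p = 0.616). Chd8 and Chd9 were at 0 in every sperm sample.

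The DNA methylation enzymes, which set and oxidise methylcytosine, were close to the limit of counting in both tissues. Dnmt3l, the catalytically inactive cofactor of the de novo methyltransferases, had 6 counts in sperm 4 and none in sperm 1 to 3, against 4 and 0 in testes (log2 fold change 2.39 ± 1.35, edgeR adjusted p = 0.176). Dnmt3a, a de novo methyltransferase, had 6, 14, 0 and 1 counts against 3 and 2. Tet3, the methylcytosine oxidase that acts in the zygote, had 0, 7, 0 and 6 counts against 0 and 1.48, and its log2 fold change of 4.79 ± 1.74 missed the threshold (edgeR adjusted p = 0.0647). Without sperm 3 it was called (edgeR adjusted p = 0.00751). Dnmt1, the maintenance methyltransferase, was at 0 in sperm and had 5 and 6 counts in testes.

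Leaving out 1 sample changed which members were called. Without either testes sample none was. Without sperm 3, 8 members were called higher, where 9.01% of all genes were, and 3 were called lower, where 10.4% were. The 8 were Chd4, Chd5, Kat6b, Kdm2a, Kdm4b, Prmt6, Sirt1 and Tet3, and the 3 were Brd8, Brd9 and Smarcal1. Without sperm 2, in which the most members were listed, Brd8 was the only member called, where 0.944% of all genes were called higher and 0.771% lower.

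Of the 104 members, 30 were at 0 in all 4 sperm samples. The floor of 3 counts over sperm 2 to 4 was 15.97 cpm, and 24 of the 30 were at or below that level in the pooled testes, so their absence was not detectable as a difference at this depth. The other 6 were Kdm5a at 51.8 cpm in testes (at least 3.25-fold lower in sperm), Chd9 at 48.7 cpm (at least 3.05-fold), Chd8 at 48.0 cpm (at least 3.01-fold), Kmt2c at 39.3 cpm (at least 2.46-fold), Kdm4d at 26.7 cpm (at least 1.67-fold) and Dnmt1 at 17.3 cpm (at least 1.08-fold). These minima cover counting error only. The sperm samples differed by more than that, so the differences could be smaller. EdgeR called none of the 6 in the comparison of sperm 2 to 4 with testes, while limma at pseudocount 0.1 called all 6 lower and at pseudocount 1 Kdm4d. With all 4 sperm samples in the fit, Kdm5a, Chd8, Chd9 and Kmt2c (edgeR adjusted p = 0.0323 each) and Kdm4d (0.0383) were called lower beside Brd8 and Smarcal1, where 17.5% of all genes were, and Kat6b and Prmt6 were again called higher, where 3.83% were.

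Chromatin genes outside the name rule gave a reference from the same pathways. Of 135 such genes on a list of complex subunits, readers, chaperones and related enzymes, 119 were measured and 85 could be tested. Of these, 4 rose in sperm, Ing2, Ing4 and Phf19 among them, and 2 fell, Mina among them, beside the 3.54% and 3.65% of all genes called in these directions. The median log2 fold change of the 85 was -0.47, or -0.23 with genes at 0 in a group set to their bound. Ing2, a reader of trimethylated lysine 4 of histone H3 in the Sin3 complex, had 12, 140, 9 and 37 counts in sperm 1 to 4 against 8 and 4 in testes, with every sperm sample above both testes by cpm (log2 fold change 5.35 ± 1.02, edgeR adjusted p = 1.35e-05). Mina, a ribosomal histidine hydroxylase, had no count in any sperm sample against 199 and 356 in testes (edgeR adjusted p = 7.54e-08).

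The members had longer transcripts than genes at large. The median length was 4543 bases for members and 2678 for all genes with a protein-coding transcript, and 55.8% against 26.2% were over 4000 bases. Members listed in some sperm sample had a median of 4589 bases and those listed in none a median of 4046 bases. Of the members, 28 had more than 1 transcript model, and 27 had a count that was not whole within 0.005, which shows that fragments were divided between models or genes. Among 101 members matched to GRCm38.p6 by accession, Hdac6, Hdac8, Kdm5c and Smarca1 lay on the X chromosome.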

How the data were processed

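RNA-seq tables of 4 sperm and 2 testes samples were used, 1 table per sample, and each lists only transcripts with a value. Per the labels, libraries were rRNA-depleted with RNase H, strand-specific and paired-end. The submitters' processing notes name HISAT and mm10, and the methods name SOAP2. The counting program is not given in the sources used here. The authors deposited expected counts per transcript, which need not be whole numbers. The authors also deposited FPKM, which divides by transcript length and depth.

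Expected counts of NM_ transcripts were summed per gene symbol, with absent genes set to 0, and rounded to whole numbers for the tests. Each sample was scaled by its NM_ total (33511 to 322625). Genes with a summed count of at least 10 over the 5 samples compared were tested with edgeR 4.0.16 (quasi-likelihood, R 4.3.3, no further scaling factors), with Benjamini-Hochberg adjustment over all genes tested. DESeq2 1.42.0 and limma 3.58.1 on log2(FPKM + 1) or log2(FPKM + 0.1) were alternatives. SE is the absolute log2 fold change over the square root of F. FPKM fold changes are on the log2(value + pseudocount) scale, which understates low genes. Tables and intervals were made with Python 3.11.15 and scipy 1.17.1. The scripts were tested on simulated data. Per the methods, sperm replicates were separate pools of mice, and testes came from the same mice without a stated match to the pools. PCR duplicates were not marked by molecular identifiers.

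The members, families and lists were chosen with earlier results of these data known. Members named were Brdt, all called members, the 8 highest by mean FPKM in sperm 2 to 4 and in testes, the highest of each family, and up to 3 called genes in each direction from the list of other chromatin genes, of which some are not reported here. Gene names and positions come from RefSeq on GRCm38.p6, to which 101 of 104 members matched by accession. A promoter CpG check was void, since 83 of the 104 members (79.8%, below the 80% set as minimum) had a promoter window. Sperm 1 entered only the alternatives.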

Additional observations from a re-analysis of the deposited data

Results flagged for a closer look

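In 33 groups of 4 sperm values, Dixon's test at its 95% critical value singled out 1 sample in 10 groups, where chance gives about 1 in 20 for continuous values. That rate does not hold for the 6 genes below that were listed in 1 sperm sample only, since 3 values at 0 meet the criterion whatever the fourth is. The acetyltransferase share was 0.00236% in sperm 1 and 0.0313% to 0.0328% in the other sperm samples. Sperm 2 alone had a level for Brd8 (21.1 cpm), Brd9 (10.0 cpm) and Brdt (30.0 cpm), and the other 3 sperm samples were at 0. Sperm 4 alone had Dnmt3l (110.4 cpm) and Kat8 (147.2 cpm), and sperm 3 alone had Sirt5 (238.7 cpm). Sperm 3 was also far above the others for Kdm3b, at 716.2 cpm against 23.6 to 128.8, and for Prmt6, at 835.5 cpm against 189.9 to 276.1. Sirt1 was at 0 in sperm 3 and at 279.9 to 294.5 cpm in the other sperm samples.

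Sperm 1, which was not in the main comparison, had more than 3 counts and lay above both testes samples for 7 of the genes selected for description. Members not in that selection, such as Chd3 and Smarcc1, were not screened in this way. Prmt6 was at 212.3 cpm against 27.9 and 31.8, Chd5 at 235.9 cpm against 79.6 and 96.1, and Kdm1a at 212.3 cpm against 143.2 and 192.2. Sirt1 was at 283.1 cpm against 60.5 and 74.9, and Sirt3 at 165.1 cpm against 69.2 and 71.3. Of the chromatin genes outside the name rule, Ing2 was at 283.1 cpm against 12.7 and 24.8, and Phf19, a Polycomb-like reader, at 401 cpm against 0 and 3.1.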

How the results depend on the processing

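Calls of single members depended on the samples and the scaling. The number of members called higher in sperm (2) was 0 with TMM factors, with no filter on low counts, with the replicate block and with all 4 sperm samples and TMM factors, and 1 with a summed count of at least 50 or limma on log2(FPKM + 0.1). Leaving out 1 sample at a time gave 0 to 8. The number called lower (2) was 0 with no filter, 1 with TMM or the block, 5 with at least 50 counts, 6 with DESeq2, 7 with all 4 sperm samples, 9 with limma on log2(FPKM + 1) or with all 4 sperm samples and TMM, and 11 with limma on log2(FPKM + 0.1). Leaving out 1 sample gave 0 to 3. The share of all genes called moved too, from 3.54% higher and 3.65% lower to 0.337% and 1.32% with TMM, 0.104% and 0.0278% with no filter, 2.35% and 1.48% with the block, 8.75% and 19% with at least 50 counts, 2.81% and 12.9% with DESeq2, 3.83% and 17.5% with all 4 sperm samples, 0.863% and 25% with TMM added, and 3.37% and 22.4% or 2.91% and 26.2% with limma at pseudocount 1 or 0.1. For the other chromatin genes, calls higher (4) were 0 with TMM or no filter, 2 with all 4 sperm samples and TMM, and 1 to 12 leaving out 1 sample. Calls lower (2) were 0 with no filter, 1 with TMM or the block, 5 with at least 50 counts, 8 with DESeq2, 11 with all 4 sperm samples, 12 and 16 with limma at the pseudocounts 1 and 0.1, 16 with all 4 sperm samples and TMM, and 1 to 7 leaving out 1 sample. The fit of all 4 sperm samples with TMM was chosen after seeing the data. TMM moved the median log2 fold change of all genes from -1.19 to -1.83 and that of the members from -0.60 to -1.23. The log2 ratio of the members' share was 0.15 without the 10 highest mRNA genes in the total, -0.26 with all 4 sperm samples and -0.39 as a share of all transcripts. That of the acetyltransferases (1.87) was 1.19 on FPKM, 1.49 with all 4 sperm samples and 1.58 to 2.25 leaving out 1 sample.

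Genes not called in the comparison reversed in 24 cases. With the replicate block the log2 fold change was -0.60 for Chd4, -2.35 for Dnmt3l, -4.11 for Kat8 and -3.44 for Sirt5. Replicates 3 and 4 had no testes sample, so under the block only sperm 1 and 2 were compared with the testes. The sperm counts of Dnmt3l, Kat8 and Sirt5 all lay in sperm 3 or 4. With TMM the log2 fold change was -0.17 for Kdm1a and -0.46 for Sirt3, with all 4 sperm samples and TMM -0.37 and -0.39, and with DESeq2 -0.57 and -0.74. With limma at pseudocount 1 it was -0.0069 for Kat8, -0.57 for Kdm1a and -0.68 for Sirt3, and at 0.1 -1.49, -1.57 and -1.69, with -0.27 for Sirt1 and -0.66 for Sirt5. Scaled by all transcripts, Sirt3 was at -0.014. Leaving out 1 sample gave -1.21 to 0.029 for Brd2 (highest without sperm 3), -0.50 to 0.67 for Sirt3 (lowest without sperm 4), -0.030 to 0.87 for Kdm1a (lowest without sperm 2 or sperm 4) and -4.78 for Kat8 (without sperm 4). The cause of the reversals in the fits without the block was not tested. Sperm and testes share the replicate numbers 1 and 2, but no match between them is stated, so the numbers were not taken to pair samples. Their deviations from the group means gave r = -0.019 and -0.048 over 6949 genes. With 2 testes samples, whose deviations mirror each other, and few sperm counts, these values cannot show whether samples pair. Under the block, where only sperm 1 and 2 were compared with the testes, Brd8 was the only member called (edgeR adjusted p = 0.0252). Depth limits every statement on low members, since 3 counts equal 30.0 to 89.5 cpm in a sperm sample.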

Other observations

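The genes that replace histones in spermatids did not move together. Transition protein 1 (Tnp1) had 0, 2, 0 and 0 counts in sperm 1 to 4 and 98 and 86 in testes, and fell in sperm (log2 fold change -4.83 ± 1.53, edgeR adjusted p = 0.0285). Prm1 fell as well (-4.13 ± 1.32, edgeR adjusted p = 0.0297). Transition protein 2 (Tnp2) had 3, 18, 0 and 4 counts against 95 and 127 and was not called (edgeR adjusted p = 0.182). Hils1, a spermatid linker histone, was at 0 in every sperm sample against 24 and 13. Prm2 had 45 to 148 counts in sperm against 465 and 220 in the deeper testes, and its log2 fold change of 0.73 ± 0.53 was not called (edgeR adjusted p = 0.309). Summed over the 9 measured genes of this list, the level was 1274, 1790, 2089 and 2632 cpm in sperm 1 to 4 and 2949 and 2157 cpm in testes, so the range of the sperm samples reached into that of the testes. The sperm sum was mostly Prm2, with 45 of 54, 148 of 179, 49 of 70 and 130 of 143 counts in sperm 1 to 4. H1fnt had 0, 5, 3 and 0 counts against 62 and 49, and Rnf8 0, 0, 0 and 5 against 53 and 41. H2afb1 had none in sperm against 3 and 4, and Prm3 had 0, 4, 18 and 2 against 28.5 and 22.0.

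Other genes outside the name rule were called in the same comparison. Phf19 had 17, 20, 9 and 5 counts in sperm 1 to 4 and 1 and 0 in testes (log2 fold change 6.32 ± 1.87, edgeR adjusted p = 0.0168). Ing4, named after its values were seen, had 84, 384, 91 and 172 counts against 164 and 83 (log2 fold change 3.07 ± 0.53, edgeR adjusted p = 8.96e-07), and its annotated span overlaps the lncRNA 4930557K07Rik.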
